A study of Mus musculus with 60 samples.

Results

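The hippocampus of mice bearing a melanoma labelled as cachectic (CAC) was compared with that of mice bearing a melanoma labelled as non-cachectic (NCAC), both taken 6 wk after injection. The comparison used every sample the labels place in these groups, 5 CAC and 4 NCAC samples of 60 in the series. The other samples were CAC, NCAC and mock-injected (Con) mice at 2, 4, 6 and 8 wk, 12 groups in all, and the 5 Con samples of 6 wk are given beside the main values. All mice were female and 2 months old. Their strain is not settled: C57BL6/J stands in the sample labels, but NCI Ath/nude in the design text of the series. The extract protocol also speaks of an LLC cell injection, which fits no group. The labels call the samples biological replicates but do not say that each is a different mouse, so p-values here measure only how much these samples vary, which may be technical. No measure of body weight, food intake or tumour size was used here, and cachexia is known only from the name of the injected cells.

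Cachexia is the wasting of muscle and fat that accompanies some tumours. Both groups carried a melanoma, so the comparison asks what differs in the brain between hosts of a tumour that causes wasting and hosts of one that does not. Signals known to reach the brain in wasting include adrenal glucocorticoids, which act through a nuclear receptor, cytokines of the IL6 family, which act through STAT3, and the shift in fuel supply of an animal that eats less. The hippocampus holds granule and pyramidal neurons, astrocytes, microglia, oligodendrocytes and a dense bed of vessels, and it lies against the choroid plexus and the meninges.

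Values are TPM, a level scaled for gene length and for the total of each sample. The 9 samples held 35690898 to 39067663 recovered reads, and their log2 values correlated at 0.975 to 0.991 across genes. Markers of principal neurons were present in all of them. Slc17a7, the vesicular glutamate transporter of excitatory neurons, ranged from 1038 to 1277 TPM in CAC and from 1115 to 1249 in NCAC, and Spink8, a marker of CA1 pyramidal cells, from 70.7 to 119.5 and from 51.4 to 78.1. Genes of the choroid plexus varied widely between samples, and the source of this was not tested. Ttr, the abundant transthyretin of choroid epithelium, made up most of the summed TPM of 12 choroid genes in 7 of the 9 samples. That sum ran from 382 to 8819 in CAC and from 75.9 to 8460 in NCAC, and it was over 2000 in CAC replicates 2 and 3 and NCAC replicates 2 and 4. The other 11 choroid genes put different samples first. They summed to 521 TPM in CAC replicate 5 and 573 in NCAC replicate 3, where Ttr was only 186 and 241, and to 26.7 to 327 in the other 7 samples. CAC replicate 3 also stood apart in technical shape, since its values rose by 0.116 log2 for each doubling of gene length against −0.0631 to 0.0349 in the other 8 samples. In whole tissue, fewer cells of a type and less RNA per cell cannot be told apart.

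Of 15608 genes tested, 276 (1.77%) passed an adjusted p of 0.05 in limma. The larger number, 207 genes (1.33%), were higher in CAC, and 69 (0.442%) were lower. Most of the changes were small. Only 14 of the higher and 7 of the lower genes differed over 2-fold, and 193 of the 276 differed by less than 1.5-fold. The median difference was 0.34 log2 among the higher genes, −0.58 among the lower ones and 0.03 over all genes tested. An unadjusted p under 0.05 was found for 2943 genes. Of the 276 genes 75% were higher, and this split depended on scaling. It was 59.6% of 265 genes with median-of-ratios scaling, 60.3% of 209 with voom on the recovered reads, 60.1% of 253 with both, and 63% of 419 once trends on GC and length were taken out. Differences below are in log2(TPM + 0.5) with their standard error (SE). This scale shrinks the differences of genes with low TPM. Each gene's adjusted p comes from limma.

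The count rested on few samples. Without NCAC replicate 3 it was 43, without NCAC replicate 4 it was 49, and without NCAC replicate 1 it was 104. Leaving out CAC replicates 1, 2, 4 and 5 in turn gave 112, 115, 132 and 141 genes. NCAC replicate 2 mattered less, with 216 genes left, and without CAC replicate 3 the count rose to 367. With the 4 samples of highest Ttr and choroid sum left out together, 3 CAC and 2 NCAC samples remained and 0 genes passed in limma, with 1757 at an unadjusted p under 0.05. Without CAC replicate 5 and NCAC replicate 3, the highest in the other 11 choroid genes, 22 passed, among them Etnppl, Phyhd1, Socs3, C4b, Osmr, Pbk and Dcc. As a covariate over all samples, the choroid sum left 243 genes and the sum without Ttr 295. These 4 fits were added after the data were seen. With only the groups compared in the fit, which has fewer samples to estimate the spread, 96 genes passed, 66 of them among the 276. Of 50 genes called here by the rules for naming genes, 17 kept their call in that fit, including Etnppl, Rtp1, Wnt10b, Phyhd1, Sgk1, Pdk4, Osmr, Gkn3, Pbk and Dcc.

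**Figure D1:**
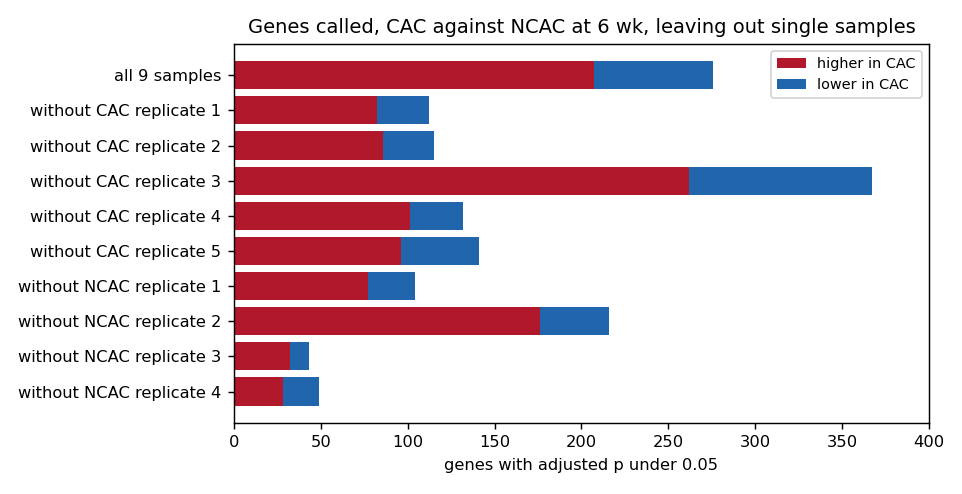
Genes with an adjusted p under 0.05 for CAC against NCAC at 6 wk, with all 9 samples and with each sample left out in turn; red is the number higher in CAC and blue the number lower. The total runs from 43 without NCAC replicate 3 to 367 without CAC replicate 3, against 276 with all samples.

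The named genes with the largest rises began with Etnppl, the astrocyte enzyme that breaks down phosphoethanolamine, an intermediate of membrane lipid metabolism. It measured 16.8, 13.8, 11.3, 13.9 and 7.75 TPM in CAC replicates 1 to 5 and 1.71, 0.330, 0.966 and 0.881 in NCAC replicates 1 to 4. Every CAC sample thus held more than 4 times the TPM of the highest NCAC sample, and Con averaged 1.37 ± 1.04 (SD, n = 5). The difference was 3.21 ± 0.57 log2 (SE, adjusted p = 0.00261), 9.23-fold on the tested scale. Etnppl is a protein-coding gene on the plus strand of chromosome 3 at 130617448 to 130637521 (GRCm38). Rtp1, a chaperone that carries odorant receptors to the cell surface, measured 6.23, 4.53, 5.39, 7.16 and 4.95 TPM in CAC and 1.08, 0.161, 0.334 and 0.582 in NCAC, again without overlap (2.63 ± 0.52, adjusted p = 0.00937). Its NCAC values rest on 5 to 34 recovered reads. Phyhd1, a dioxygenase related to phytanoyl-CoA hydroxylase, was the most abundant of the 3, at 44.9, 34.6, 27.8, 23.9 and 22.9 TPM in CAC and 12.02, 8.26, 10.6 and 10.7 in NCAC (1.49 ± 0.29, adjusted p = 0.00937). Its lowest CAC sample was above the highest NCAC and the highest Con sample, the last at 13.1.

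Wnt10b, a secreted Wnt ligand, measured 3.94, 5.39, 1.66, 9.94 and 3.49 TPM in CAC and 0.424, 0.604, 0.488 and 0.593 in NCAC (2.20 ± 0.46, adjusted p = 0.00996). CAC replicate 4 was the highest and replicate 3 the lowest, and both lay above every NCAC sample. Scgb3a1, a secreted secretoglobin, was listed at 0 in NCAC replicates 2 and 4 and rested on 4 to 60 recovered reads in CAC. Its values were 4.41, 3.22, 3.496, 9.79 and 0.642 TPM in CAC and 0.331, 0, 0.635 and 0 in NCAC (2.47 ± 0.57, adjusted p = 0.0178). CAC replicate 5 was within 0.01 TPM of NCAC replicate 3, so the groups barely parted.

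The calcium store protein Casq1 measured 3.96, 2.78, 1.66, 2.05 and 1.92 TPM in CAC and 0.486 to 0.621 in NCAC (1.48 ± 0.39, adjusted p = 0.0377). Gabrr2, a rho subunit of GABA receptors, measured 6.50, 3.14, 2.58, 4.12 and 3.46 TPM in CAC and 0.986 to 1.13 in NCAC (1.49 ± 0.38, adjusted p = 0.0315). In both genes the lowest CAC sample was above every NCAC sample. The other rises among the 15 largest were Tmem252, a membrane protein (1.54), Ch25h, which makes the oxysterol 25-hydroxycholesterol (1.36), Cdkn1a, the cell-cycle inhibitor p21 (1.28), Apod, a lipid carrier of glia (1.18), Socs3, C4b, Pdk4 and Sgk1, the last 4 described with their lists. Ch25h alone of the 15 overlapped between the groups, with CAC replicate 5 at 0.995 TPM and NCAC replicate 2 at 1.42.

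Gkn3, which marks arterial endothelium in the brain, had the largest fall of the named genes. It measured 1.26, 1.07, 1.22, 1.14 and 2.02 TPM in CAC, from 10 to 18 recovered reads, and 7.16, 8.47, 5.87 and 4.24 in NCAC, from 42 to 72. The groups did not overlap, Con averaged 8.36 ± 2.58 (SD, n = 5), and the difference was −1.90 ± 0.41 (adjusted p = 0.0134). Gkn3 lies on the minus strand of chromosome 6 at 87383256 to 87388935 (GRCm38).

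Dcc, the netrin receptor that guides axons, had the smallest p of all genes. Its values were 4.35, 3.36, 5.26, 4.28 and 4.52 TPM in CAC and 6.93, 7.85, 7.93 and 8.49 in NCAC, with 6.04 to 7.32 in Con. All CAC samples lay below all NCAC and Con samples, and the difference was −0.78 ± 0.13 (adjusted p = 0.0012). Falls were also found for Dok6, an adaptor of receptor tyrosine kinases (−1.28), Fzd3, a Wnt receptor (−0.89), and Tnc, the matrix protein tenascin C (−0.88). For Dok6 the highest CAC sample, 1.259 TPM, lay just below the lowest NCAC sample, 1.268. Dok6 passed in 2 of the 9 fits without a sample and in neither voom fit. Tnc measured 2.33, 2.46, 2.95, 2.86 and 2.84 TPM in CAC and 4.52, 7.27, 6.29 and 3.96 in NCAC, without overlap (adjusted p = 0.0167). Lingo2, a leucine-rich repeat protein of neurons, was chosen for its change between weeks and fell from 7.51 to 8.73 TPM in NCAC to 5.42 to 6.64 in CAC (−0.41 ± 0.08, adjusted p = 0.00959). Ptn, the growth factor pleiotrophin, one of the genes named in earlier work on these data, was also lower in all CAC samples. It measured 122, 144, 140, 149.9 and 152.5 TPM in CAC and 207, 225, 199 and 174.5 in NCAC (−0.50 ± 0.11, adjusted p = 0.0145).

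Pbk, a mitotic kinase, was very low in every sample, at 0.327, 0.256, 0.350, 0.599 and 0.536 TPM in CAC (5 to 11 reads) and 1.10, 2.02, 1.11 and 1.45 in NCAC (20 to 36 reads). The groups did not overlap (−1.06 ± 0.20, adjusted p = 0.00879). Fcrls, a microglial receptor, measured 1.17, 1.85, 4.17, 3.38 and 5.26 TPM in CAC and 10.4, 7.16, 6.42 and 9.52 in NCAC (−1.39 ± 0.34, adjusted p = 0.0242). CAC replicates 1 and 2 were lowest and all 5 lay below NCAC. The remaining falls among the 15 largest were the aminopeptidase Lnpep (−1.24), the prenyltransferase subunit Ptar1 (−0.98), the collagen hydroxylase subunit P4ha3 (−0.88), Btbd17 (−0.84), the potassium channel subunit Kcne1l (−0.79), the carbonic anhydrase Car15 (−0.76), the peptide gene Grp (−0.75) and the glutamate receptor Grm3 (−0.73). Lnpep, Ptar1 and P4ha3 overlapped between the groups, in each case through CAC replicate 3.

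Among all genes tested, 856 (5.48%) had all 5 CAC above all 4 NCAC samples and 290 (1.86%) all 5 below. Of the 15 largest rises 14 did not overlap, and of the 15 largest falls 12 did not. For a single gene the exact two-sided permutation test of 5 against 4 samples cannot go below p = 0.0159. Any gene without overlap reaches that value, so for these 26 genes it only restates the lack of overlap. Of the 30 genes, 8 kept an adjusted p under 0.05 in limma in all 9 fits without a sample, namely Etnppl, Rtp1, Wnt10b, Phyhd1, Socs3, Gkn3, Pbk and Dcc. Their highest adjusted p ran from 0.0168 for Dcc to 0.0447 for Socs3. At the other end, 14 genes passed in at most 3 of the 9 fits, with Casq1, Cdkn1a, P4ha3, Grp and Grm3 in 1, and adjusted p-values reached 0.161 for Lnpep.

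**Figure D2:**
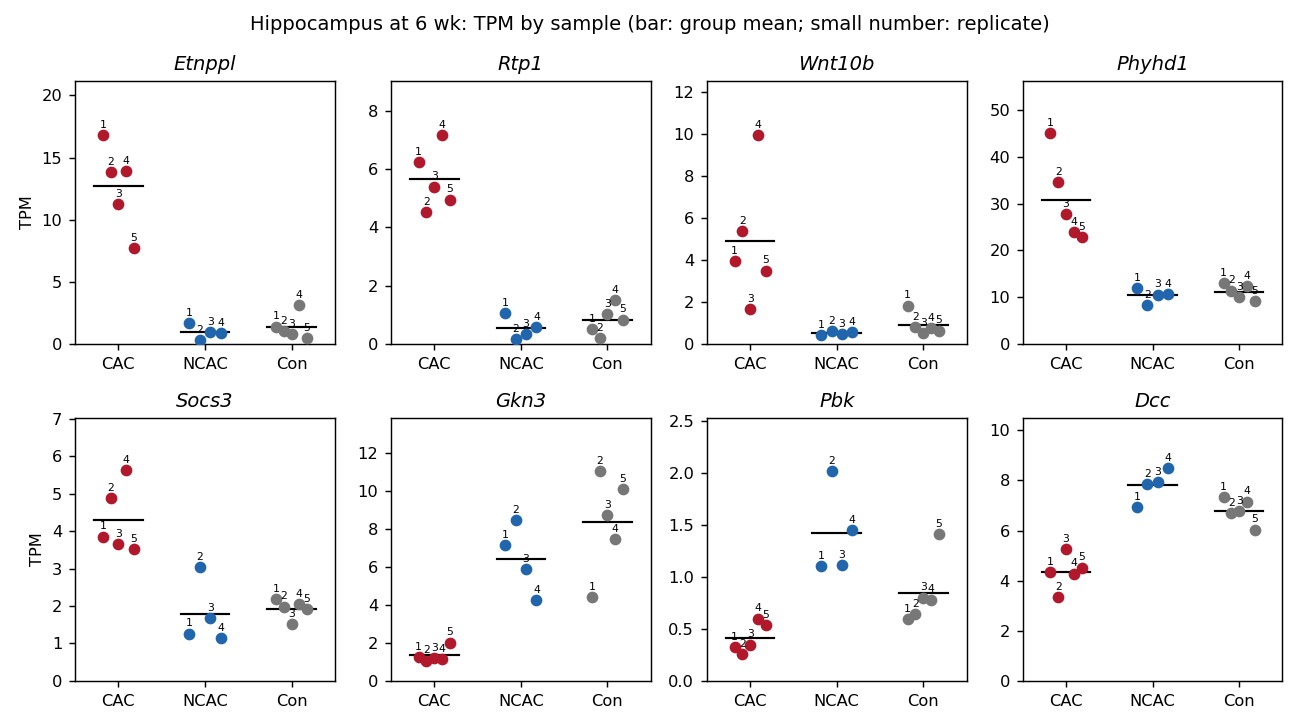
TPM of the 8 genes that passed in all 9 fits without a sample, for each CAC, NCAC and Con sample at 6 wk; each point is a sample with its replicate number, and the bar is the group mean. CAC samples lie above all NCAC samples for Etnppl, Rtp1, Wnt10b, Phyhd1 and Socs3 and below them for Gkn3, Pbk and Dcc.

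Promoter sequence was read for leading genes, to look for the motifs of STAT factors and of the glucocorticoid receptor, whose target lists are described next. Windows of 300 bases, from 250 before to 50 after a transcript start, came from RefSeq (GRCm38.p6). They were searched for the STAT palindrome TTCCNGGAA and the glucocorticoid response element GNACANNNTGTNC, each of which reads the same on both strands. Of the 30 genes of largest difference, those of smallest p were taken, leaving out Dcc, which is not shown, and Rtp1 and Pbk. This gave Etnppl, Socs3, Phyhd1 and Wnt10b, and none of their windows held either motif. The Socs3 window lies inside the gene as annotated, whose 5' end on the minus strand is at 117970047. Sequence before that end was not searched for Socs3. Etnppl and Socs3 are shown, with Sgk1 and Scgb3a1, which were added after the search because a window of each held a match. Capitals mark the match. The windows are chr3:130617198-130617497 (plus strand) for Etnppl, chr11:117969317-117969616 (minus) for Socs3, chr10:21993640-21993939 (plus) for Sgk1 and chr11:49663345-49663644 (plus) for Scgb3a1.
Etnppl: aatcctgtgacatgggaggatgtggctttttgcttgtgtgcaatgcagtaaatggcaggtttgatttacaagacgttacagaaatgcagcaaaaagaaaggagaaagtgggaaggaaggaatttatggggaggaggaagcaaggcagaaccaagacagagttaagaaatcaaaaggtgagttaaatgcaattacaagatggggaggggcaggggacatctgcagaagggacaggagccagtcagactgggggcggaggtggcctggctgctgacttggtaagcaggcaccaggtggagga
Socs3: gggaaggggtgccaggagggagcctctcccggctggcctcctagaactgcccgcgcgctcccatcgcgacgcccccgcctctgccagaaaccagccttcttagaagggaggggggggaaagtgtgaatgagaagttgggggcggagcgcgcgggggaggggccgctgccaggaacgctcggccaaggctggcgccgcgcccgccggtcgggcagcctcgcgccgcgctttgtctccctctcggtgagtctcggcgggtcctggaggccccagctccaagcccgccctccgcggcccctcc
Sgk1: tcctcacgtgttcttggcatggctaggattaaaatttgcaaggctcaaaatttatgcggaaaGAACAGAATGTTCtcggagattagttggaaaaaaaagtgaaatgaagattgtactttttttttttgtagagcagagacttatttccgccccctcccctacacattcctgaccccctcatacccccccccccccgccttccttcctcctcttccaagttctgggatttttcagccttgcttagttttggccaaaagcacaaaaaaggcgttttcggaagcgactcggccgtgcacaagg
Scgb3a1: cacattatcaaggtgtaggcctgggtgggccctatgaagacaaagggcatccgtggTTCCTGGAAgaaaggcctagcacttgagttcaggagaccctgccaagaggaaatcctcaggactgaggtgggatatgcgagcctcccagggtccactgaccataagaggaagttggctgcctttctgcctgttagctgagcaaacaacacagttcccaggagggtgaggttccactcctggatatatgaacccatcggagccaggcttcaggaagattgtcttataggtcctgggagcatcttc
The Sgk1 match is of the glucocorticoid element and begins 188 bases before the start, at 1 of several starts listed for that gene. The Scgb3a1 match is of the STAT palindrome and begins 194 bases before the start. Of all 32851 promoter windows 1.15% held the STAT palindrome and 0.47% the glucocorticoid element. Among the 199 genes called here that had a window, 2 held the STAT palindrome (1.01%, Aldoc and Scgb3a1) and 3 the glucocorticoid element (1.51%, Mpv17, Sgk1 and Stx17), against 1.54% and 0.39% of 11468 tested genes. A match is a description of letters, not evidence of binding.

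Of 25 glucocorticoid response genes, all tested, 4 rose in CAC (Pdk4, Sgk1, Arrdc2 and Cdkn1a) and 0 fell. Of all genes tested 1.33% rose and 0.442% fell, the shares to set beside each list below. All lists were chosen with earlier results of these data known. Pdk4, Sgk1 and Cdkn1a were already named for CAC against Con at 6 wk, which used the same CAC samples. Counts of calls and of signs in a list are thus not independent evidence. Of the 25 differences 24 were positive, against 9128 of 15608 over all genes, and the median was 0.42 against 0.03. The summed level of the list was 1969, 1597, 1703, 1669 and 1579 TPM in CAC and 1414, 1143, 1025 and 1223 in NCAC, so that every CAC sample lay above every NCAC sample. The Con range, 1136 to 1326, lay within that of NCAC.

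Sgk1, a kinase induced by corticosteroids that controls ion channels, measured 121, 118, 98.9, 103 and 123 TPM in CAC and 63.7, 54.6, 51.3 and 59.5 in NCAC (0.97 ± 0.24, adjusted p = 0.027). Pdk4, which holds back glucose oxidation, measured 41.1, 44.5, 31.5, 29.2 and 34.3 TPM in CAC and 18.8, 21.3, 15.8 and 15.3 in NCAC (1.00 ± 0.22, adjusted p = 0.0166). Neither gene overlapped between the groups. The Con means were 57.95 TPM for Sgk1 and 18.4 for Pdk4, against NCAC means of 57.3 and 17.8. The arrestin-domain gene Arrdc2 differed by 0.97 ± 0.25 (adjusted p = 0.0353). Cdkn1a measured 33.2, 18.4, 15.1, 19.2 and 17.6 TPM in CAC and 7.12 to 8.56 in NCAC (adjusted p = 0.0428), and CAC replicate 1 was highest. Over the 24 alternative fits run, from 0 to 6 members of the list were called. Sgk1 passed in 4 of the 9 fits without a sample and Arrdc2 and Cdkn1a in 1 each, while Pdk4 lost its call without NCAC replicate 3 and without NCAC replicate 4.

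Several members with large differences did not pass. Plin4, a coat protein of lipid droplets, measured 62.1, 34.4, 23.2, 34.0 and 33.6 TPM in CAC and 14.5, 4.11, 2.68 and 4.93 in NCAC. Its groups did not overlap, but with a difference of 2.62 ± 0.75 its adjusted p was 0.0512. Fkbp5, which restrains the glucocorticoid receptor, measured 45.1 to 68.8 TPM in CAC and 31.5 to 42.9 in NCAC without overlap (0.57 ± 0.21, adjusted p = 0.124). The transcription factor Cebpd was the only member with a negative difference (−0.55, adjusted p = 0.317).

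In the list of IL6, STAT3 and acute inflammation 5 of 20 tested members rose and none fell, against 1.33% and 0.442% of all genes, and the median was 0.29. They were Osmr, Socs3, Stat3, Il6ra and Ch25h, which cover receptors, the transcription factor and its feedback inhibitor. Osmr, Socs3 and Ch25h were already named for CAC against Con at 6 wk, so this count too is not independent evidence. Osmr, the receptor subunit for oncostatin M, measured 3.37, 5.82, 3.82, 4.14 and 3.68 TPM in CAC and 1.84, 2.31, 1.99 and 1.56 in NCAC (0.93 ± 0.18, adjusted p = 0.00879). Its highest NCAC and highest Con samples, 2.31 and 2.43, were below the lowest CAC sample. Il6ra, the IL6 receptor alpha chain, measured 6.22, 6.48, 5.55, 5.91 and 6.11 TPM in CAC and 4.43, 4.13, 5.02 and 4.21 in NCAC (0.41 ± 0.10, adjusted p = 0.0221). Stat3 measured 21.1, 28.1, 23.7, 22.2 and 25.0 TPM in CAC and 18.5, 18.4, 19.2 and 15.5 in NCAC (0.41 ± 0.10, adjusted p = 0.0183). Neither gene overlapped between the groups. Socs3 measured 3.85, 4.89, 3.65, 5.63 and 3.52 TPM in CAC and 1.27, 3.03, 1.67 and 1.14 in NCAC, where replicate 2 came closest to CAC (1.13 ± 0.22, adjusted p = 0.00937). Osmr and Socs3 passed in all 9 fits without a sample. With only the groups compared in the fit, Osmr passed (adjusted p = 0.0401), and Socs3 (0.0608), Stat3 (0.0846) and Il6ra (0.0778) did not. Stat3 lost its call without CAC replicate 2 and without NCAC replicate 4, and Il6ra without those and without NCAC replicates 1 and 2. The acute-phase genes Lrg1 (0.96, adjusted p = 0.15) and Lcn2 (1.05, adjusted p = 0.108) and the protease inhibitor Timp1 (1.14, adjusted p = 0.0564) did not pass.

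Of 12 tested complement genes, C4b, a component of the classical pathway, was the only call, where 1.77% of all genes were called. It measured 62.8, 131, 112, 93.9 and 89.4 TPM in CAC and 58.1, 39.6, 57.9 and 29.7 in NCAC (1.08 ± 0.24, adjusted p = 0.0149). CAC replicate 1 lay only just above NCAC replicate 1. C4a, a near-identical copy that can exchange reads with it, differed by 0.37 ± 0.18 (adjusted p = 0.254). CAC replicate 2 stood apart in this list. C1qa, made by microglia, was 273.5 TPM there against 85.6 to 92.3 in the other 4 CAC samples and 77.5 to 91.1 in NCAC, and the summed list was 733 against 271 to 350 in the other CAC samples. The MHC class I list showed the same sample apart, at 617 summed TPM against 228 to 257 in the other 4 CAC and 287.5 to 311.5 in NCAC. Without this sample C4b differed by 0.97 (adjusted p = 0.0498), and without NCAC replicate 4 it lost its call (0.89, adjusted p = 0.0907). It also lost its call with only the groups compared in the fit (1.08, adjusted p = 0.0757), and without the 4 samples of highest Ttr its difference was 0.47 (adjusted p = 0.554).

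Among 18 reactive astrocyte genes Osmr and Aspg, an asparaginase, rose, against 1.33% of all genes, and the median was 0.28. Aspg measured 7.87, 20.6, 6.81, 11.1 and 9.79 TPM in CAC, with replicate 2 again highest, and 6.44, 6.56, 4.55 and 4.53 in NCAC (0.88 ± 0.23, adjusted p = 0.0376). Of 19 homeostatic astrocyte genes 2 rose, Etnppl and Aldoc, against 1.33% of all genes. The list median, 0.05, was near that of all genes. Aldoc, the aldolase of astrocytes, measured 795, 880, 816, 924 and 712 TPM in CAC and 673, 654, 599 and 607 in NCAC (0.38 ± 0.08, adjusted p = 0.0145), without overlap. Aldoc lost its call without NCAC replicate 3 and without NCAC replicate 4, and Aspg passed in 3 of the 9 fits without a sample. Glul, glutamine synthetase, had a difference of 0.34 ± 0.11 that did not pass (adjusted p = 0.0903). Fabp7, a lipid-binding protein found in astrocytes and progenitors, measured 17.4, 30.8, 28.01, 27.5 and 32.2 TPM in CAC and 48.3, 56.5, 85.3 and 42.8 in NCAC. Its groups did not overlap, and its difference of −1.06 ± 0.31 missed the threshold (adjusted p = 0.0528).

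Microglial identity genes showed 1 call in 14, against 1.77% of all genes. Fcrls fell, while Cx3cr1, the fractalkine receptor (0.19, adjusted p = 0.533), P2ry12, the purine receptor of resting microglia (−0.02, adjusted p = 0.963), and Tmem119 (0.18, adjusted p = 0.579) did not pass. The summed list overlapped, at 451 to 810 TPM in CAC and 451 to 559 in NCAC. Of 14 genes of oligodendrocyte precursors and newly formed cells, C1ql1, a secreted C1q-like protein, fell (−0.50 ± 0.14, adjusted p = 0.0481), from 9.37 to 12.8 TPM in NCAC to 6.49 to 8.54 in CAC, and passed in 1 of the 9 fits without a sample.

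Lists of fuel, growth and stress genes each held 1 call, where 1.77% of all genes were called. The calls of Pdk4 and Cdkn1a are those already counted in the glucocorticoid list. Of 19 genes of fasting and lipid droplet use Pdk4 alone rose, with a median of 0.13. The summed list was 443 to 493 TPM in CAC and 380 to 427 in NCAC, without overlap. That sum includes Pdk4, with means of 36.1 and 17.8 TPM, and Plin4, both also in the glucocorticoid list and without overlap. A sum without them was not computed, so no shift of the whole list is read from it. Of 24 genes of insulin, IGF and FoxO signalling Pik3r1, the regulatory subunit of phosphoinositide 3-kinase, rose by 0.32 ± 0.09 (adjusted p = 0.0377), with 40.7 to 52.4 TPM in CAC and 31.7 to 41.5 in NCAC. The insulin receptor Insr (0.22, adjusted p = 0.0731) and the FoxO and p53 target Sesn1 (0.31, adjusted p = 0.101) did not pass. Cdkn1a was the only call among 14 p53 targets, whose median was 0.03. Psat1, an enzyme of serine synthesis, was the only call among 19 genes of the unfolded protein and integrated stress responses (0.30 ± 0.07, adjusted p = 0.018), and Asns, asparagine synthetase, differed by 0.08 (adjusted p = 0.453). Pik3r1 passed in 2 of the 9 fits without a sample, and Psat1 lost its call without CAC replicate 2, NCAC replicate 3 or NCAC replicate 4.

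The core clock genes had a median difference of 0.19, and the repressor Cry1 rose. It measured 19.7, 24.2, 25.2, 28.9 and 26.8 TPM in CAC and 17.1 to 17.5 in NCAC (0.51 ± 0.14, adjusted p = 0.0443). Its Con mean of 20.9 lay between the groups. Cry2 (0.23, adjusted p = 0.0589) and Tef (0.20, adjusted p = 0.0953) did not pass, although neither overlapped. Cry1 passed in 1 of the 9 fits without a sample and not with median-of-ratios scaling. The hour of collection is not given in the labels.

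Rbm3, an RNA-binding protein induced by mild cold, measured 156, 155, 109.9, 148 and 154 TPM in CAC and 82.4, 80.5, 81.5 and 110.2 in NCAC (0.70 ± 0.16, adjusted p = 0.0166). The overlap came from CAC replicate 3, the lowest of its group, and NCAC replicate 4, the highest of its group. Its partner gene Cirbp measured 136, 105, 60.5, 149 and 104 TPM in CAC and 73.2 to 78.4 in NCAC (0.50 ± 0.18, adjusted p = 0.125). CAC replicate 3 was again the lowest and lay below NCAC. That sample is the one that stood apart in its trend on gene length. Rbm3 differed by 0.80 without it (adjusted p = 0.00766) and lost its call without NCAC replicate 3 (0.67, adjusted p = 0.0686).

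Vascular genes moved in both directions. In the VEGF and apelin list 2 of 16 members fell and none rose, against 0.442% and 1.33% of all genes, and the median was −0.20. Both, Vegfa and Apln, were already named for CAC against Con at 6 wk. Vegfa, the main growth factor of vessels, measured 31.3, 38.5, 41.8, 30.7 and 35.1 TPM in CAC and 41.9, 57.5, 57.3 and 63.6 in NCAC (−0.62 ± 0.14, adjusted p = 0.0145). CAC replicate 3 and NCAC replicate 1 lay within 0.2 TPM of each other. Apln, the apelin peptide of growing vessels, measured 10.3, 9.53, 11.5, 8.30 and 9.68 TPM in CAC and 14.6, 17.8, 12.9 and 16.6 in NCAC (−0.62 ± 0.17, adjusted p = 0.0482), without overlap. The receptor Kdr (−0.48, adjusted p = 0.162) and Vegfb (−0.56, adjusted p = 0.11) did not pass. Of 17 arterial genes Gkn3 was the only call, and the median was −0.20. Alpl (−0.75, adjusted p = 0.0954) and Unc5b (−0.52, adjusted p = 0.152) came next. Vegfa lost its call without NCAC replicate 3 or 4, and Apln passed in 1 of the 9 fits without a sample.

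Of 19 blood-brain barrier genes Ly6c1, a surface antigen of brain endothelium, rose. It measured 90.7, 76.0, 56.4, 79.9 and 58.9 TPM in CAC and 45.6, 46.6, 44.0 and 51.1 in NCAC (0.60 ± 0.14, adjusted p = 0.0166), without overlap, and near-identical Ly6 genes can exchange reads with it. Its call was lost without CAC replicate 1 and without NCAC replicate 3. The organic anion carrier Slco1a4 measured 73.4 to 87.4 TPM in CAC and 57.1 to 71.9 in NCAC and was just short of the threshold (0.39 ± 0.11, adjusted p = 0.0507). The summed list was 681 to 730 TPM in CAC and 580 to 680 in NCAC, parted by less than 1 TPM, and its median, 0.01, was below that of all genes. All 14 meningeal fibroblast genes had negative differences, with a median of −0.47 and 0 calls in limma. The largest were the collagens Col3a1 (−0.87, adjusted p = 0.181) and Col1a2 (−0.84, adjusted p = 0.136), and the summed list overlapped, at 116 to 320 TPM in CAC and 260 to 417.5 in NCAC.

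Calls in the neuronal lists are set beside the 1.77% of all genes called. Of 20 genes of glutamate receptors and their scaffold, Grm3, a receptor of astrocytes and neurons that couples to inhibitory G proteins, fell. It measured 14.1, 19.5, 25.0, 21.0 and 19.8 TPM in CAC and 29.8, 41.3, 36.4 and 25.5 in NCAC (−0.73 ± 0.20, adjusted p = 0.0406), with CAC replicate 3 just below NCAC replicate 4. Its sister receptor Grm2 measured 15.3 to 21.9 TPM and 22.1 to 28.3 (−0.52 ± 0.21, adjusted p = 0.158), and the list median was 0.00. Of 16 hippocampal neuropeptides none passed in limma, 4 were positive and the median was −0.31. Cck, cholecystokinin, measured 242.5, 138, 81.5, 229.9 and 119 TPM in CAC and 367, 202, 226 and 359 in NCAC (−0.89 ± 0.33, adjusted p = 0.133), with overlap. Among 11 proliferation genes Pcna, the DNA polymerase clamp, rose (0.25 ± 0.07, adjusted p = 0.0377) and Top2a, a topoisomerase of dividing cells, fell. Top2a was under 1 TPM everywhere, at 0.170 to 0.545 in CAC and 0.614 to 0.939 in NCAC (−0.71 ± 0.16, adjusted p = 0.0177). Top2a lost its call without NCAC replicate 3, and Pcna passed in 2 of the 9 fits without a sample and not with median-of-ratios scaling.

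**Figure D3:**
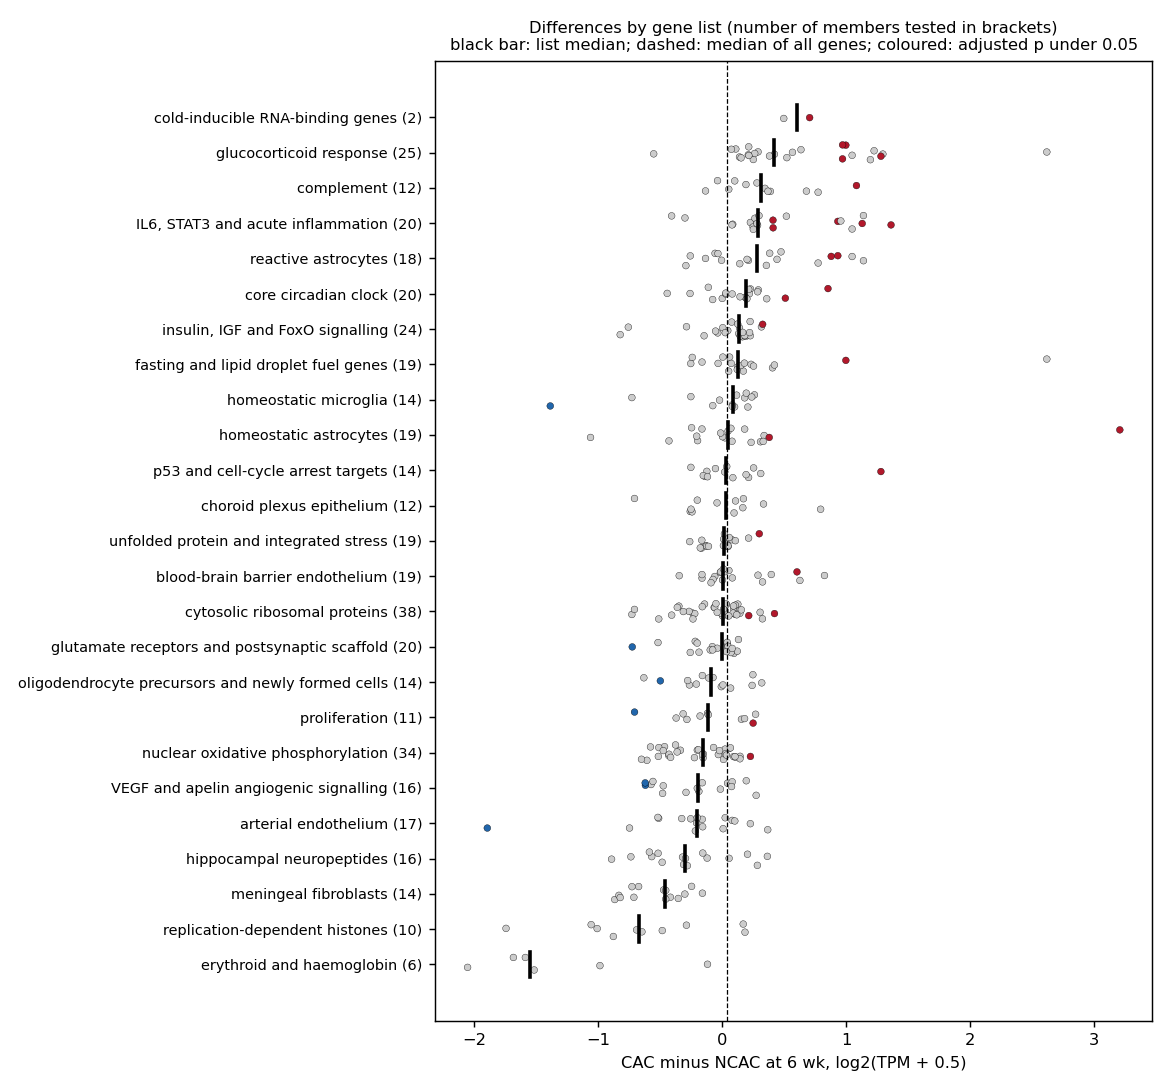
Difference CAC minus NCAC at 6 wk of each tested member of 25 gene lists, in log2(TPM + 0.5), with the number tested in brackets; red and blue points passed an adjusted p of 0.05, black bars are list medians and the dashed line is the median of all genes. List medians run from −1.55 for erythroid genes, with no call, to 0.60 for the 2 cold-inducible genes.

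No gene of the other tissues listed passed, but haemoglobin genes were lower in CAC in summed level. Haemoglobin and erythroid genes, 6 tested, had a median of −1.55 with no member past the threshold. Their summed level was 751, 1246, 749.9, 768 and 889 TPM in CAC and 1854, 2371, 1725 and 1393 in NCAC, so all CAC samples lay below all NCAC samples, while Con spanned 837 to 1986. Hbb-bs differed by −1.52 ± 0.71 (adjusted p = 0.233) and Hba-a1, which shares sequence with Hba-a2, by −1.59 ± 0.85 (adjusted p = 0.3). Replication-dependent histones, whose RNA mostly lacks a poly(A) tail, also parted, at 90.3 to 102 summed TPM in CAC and 124 to 141 in NCAC. Con lay at 81.7 to 117, and the list median was −0.67. The part of blood content and histone capture in the calls was not tested. Choroid genes had a median of 0.03, with Ttr at 186 to 8500 TPM in CAC and 49.2 to 8158 in NCAC. Of the melanocyte markers, Mlana was at 0 to 0.157 TPM in CAC and 0 to 0.159 in NCAC, and Tyr at 0 to 0.0441 and 0.0243 to 0.0556. Pmel was higher, at 0.215 to 0.491 TPM in CAC and 0.418 to 1.09 in NCAC, with Con at 0.270 to 0.799. Tyrp1 held 5 to 33 recovered reads in the 9 samples. No member of the lymphocyte, neutrophil, ependymal, thalamus and striatum lists was called.

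Calls in lists that can follow RNA quality are likewise set beside the 1.77% of all genes called. Of 38 ribosomal protein genes Rpl7 (0.21 ± 0.05, adjusted p = 0.0315) and Rps18 (0.42 ± 0.11, adjusted p = 0.0345) rose, both with pseudogene copies that can exchange reads, and the median was 0.01. They passed in 3 and 2 of the 9 fits without a sample, and Rpl7 not with median-of-ratios scaling. Ndufv1, a subunit of complex I, rose among 34 nuclear genes of oxidative phosphorylation (0.23 ± 0.05, adjusted p = 0.0231), whose median was −0.16, and passed in 5 of the 9 fits without a sample. No mitochondrially encoded gene of 13 passed, and the summed level was 194900 to 218200 TPM in CAC and 208600 to 226800 in NCAC.

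**Figure D4:**
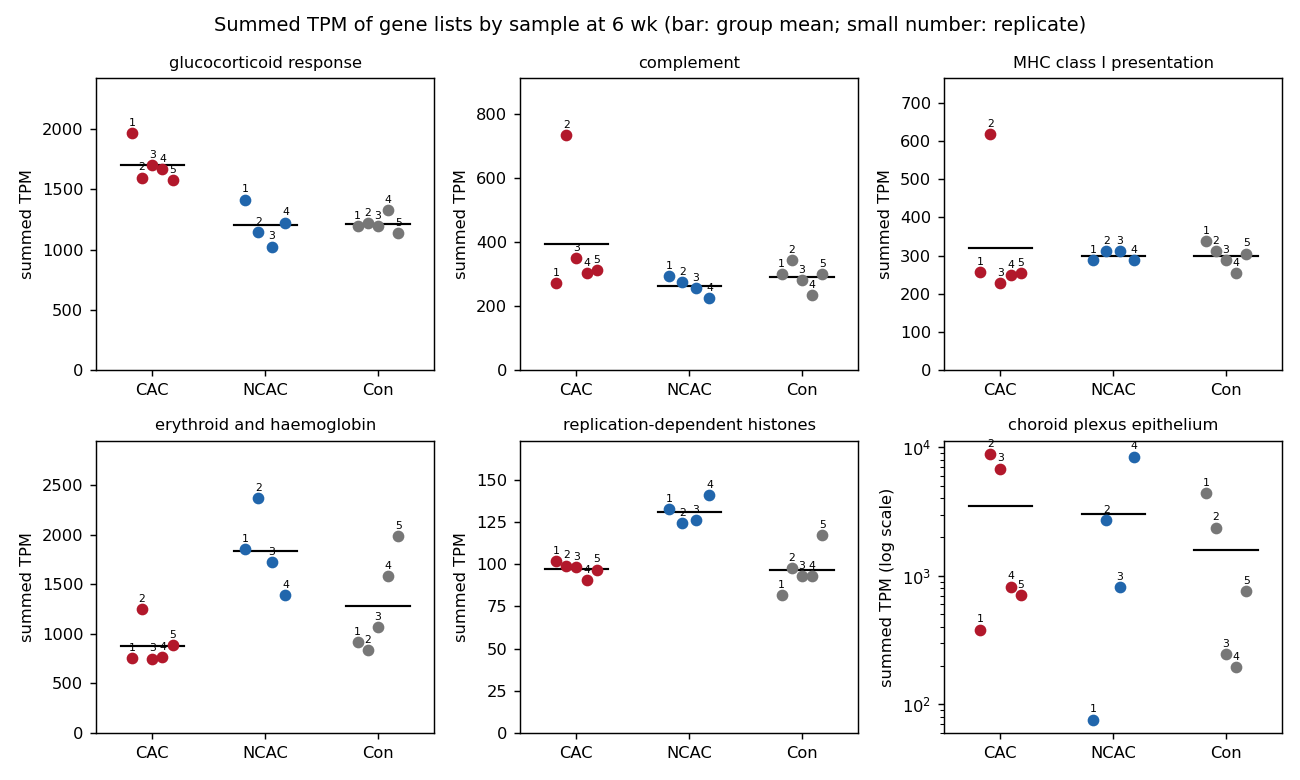
Summed TPM of 6 gene lists in each CAC, NCAC and Con sample at 6 wk; points are samples with their replicate number, bars are group means, and the choroid panel has a log scale. Glucocorticoid response genes lie higher and erythroid and histone genes lower in every CAC than in every NCAC sample, and CAC replicate 2 stands apart in complement and MHC class I.

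The values of Con show where the groups lay relative to mice without a tumour. These comparisons share the CAC or NCAC samples with the main one, so they are given side by side only. Against Con, 39 genes (0.25%) passed in CAC and 0 (0%) in NCAC, the latter in limma and in voom, with 587 and an unadjusted p under 0.05 in limma. Etnppl differed by 2.93 in CAC and −0.28 in NCAC, Phyhd1 by 1.38 and −0.11, Sgk1 by 0.96 and −0.01, and Gkn3 by −2.23 and −0.33. For some genes the distance from Con was split between the groups. Pbk differed from Con by −0.55 in CAC and 0.52 in NCAC, Dok6 by −0.76 and 0.52, Casq1 by 0.96 and −0.52, and Cry1 by 0.24 and −0.27. For Pbk, Dok6 and Casq1 neither difference passed in limma. Their adjusted p was 0.21, 0.349 and 0.265 in CAC, and 0.973 for each in NCAC. Over the 207 higher genes the median was 0.22 in CAC and −0.11 in NCAC, and over the 69 lower genes −0.40 and 0.15. The Con mean lay between the other 2 means in 259 of the 276 genes and in 7749 of all 15608. Since the 276 genes were chosen for the distance between those means, nothing is read from that count.

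The same contrast at 8 wk used 7 CAC and 5 NCAC samples, none of them shared, and called 285 genes (1.83%). Of the 207 genes higher at 6 wk, 199 (96.1%) were also higher at 8 wk, and of the 69 lower genes 66 (95.7%) were lower, where 71.9% of all genes tested had the same sign at both times. Of the 276 genes, 59 passed at 8 wk in the same direction and 0 in the opposite one, which is 21.4% of the calls at 6 wk and 20.7% of those at 8 wk. Among them were Etnppl (3.21 at 6 wk and 2.78 at 8 wk), Rtp1 (2.63 and 2.41), Phyhd1 (1.49 and 1.35), Osmr (0.93 and 1.08), Vegfa (−0.62 and −0.46) and Gkn3 (−1.90 and −2.40). At 4 wk 2 genes (0.0128%) passed in limma and 12 in voom, and the signs matched those of 6 wk in 199 of the 207 and 59 of the 69, against 66.3% of all genes. Etnppl differed by 1.58 at 4 wk (adjusted p = 0.192), Rtp1 by 1.15 (0.293) and Gkn3 by −1.41 (0.12), so none of these passed at 4 wk.

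Some of the largest differences at 6 wk were small at 8 wk. Wnt10b was 2.20 ± 0.46 at 6 wk and 0.21 ± 0.40 at 8 wk, Casq1 was 1.48 ± 0.39 and 0.17 ± 0.34, and Dcc was −0.78 ± 0.13 at 6 wk, −0.10 ± 0.11 at 8 wk and 0.04 ± 0.12 at 4 wk. None of these changes passed when tested. From 6 to 8 wk 0 genes (0%) passed in limma and 0 in voom, with 515 at an unadjusted p under 0.05 in limma, and the change of Dcc was 0.68 ± 0.17, of Grm7, a presynaptic glutamate receptor, 0.48 ± 0.13 and of the pseudogene Ube2d-ps −0.24 ± 0.07 (adjusted p = 0.998 for each). From 4 to 6 wk 0 genes (0%) passed in either tool, with 660 at an unadjusted p under 0.05 in limma. The smallest p-values were those of Dcc (−0.82 ± 0.17), Shcbp1l (−0.71 ± 0.16) and Lingo2 (−0.50 ± 0.11), each with an adjusted p of 0.209.

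**Figure D5:**
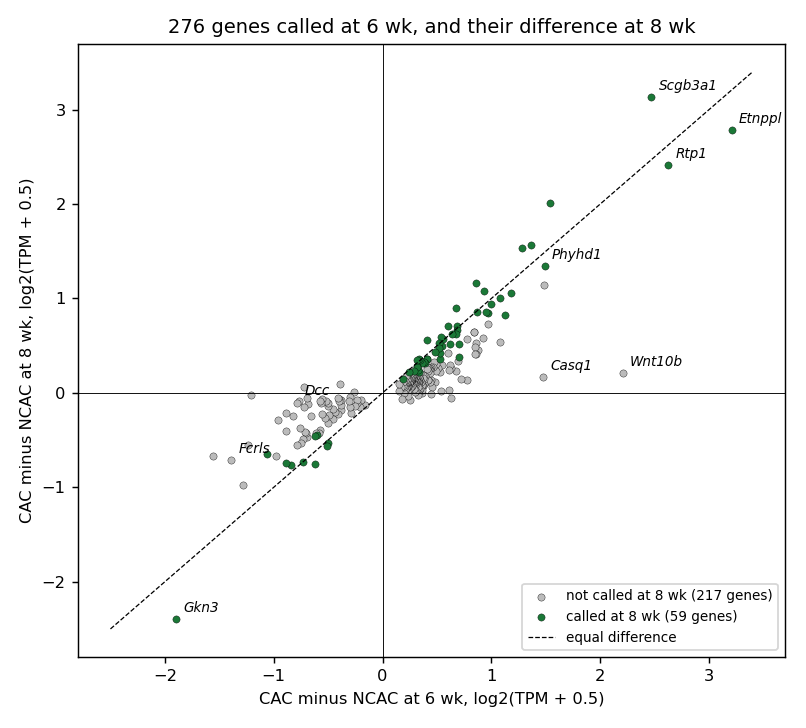
Difference CAC minus NCAC of the 276 genes called at 6 wk, at 6 wk (x axis) and at 8 wk (y axis), in log2(TPM + 0.5); green points were also called at 8 wk and the dashed line marks equal differences. The 59 green genes all lie in the quadrants of equal sign, and Wnt10b, Casq1 and Dcc lie near 0 at 8 wk.

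Genes already named for other contrasts of these data were followed at 6 wk. Of 26 genes named for CAC against NCAC at 8 wk, 7 rose and 1 fell at 6 wk, against 1.33% and 0.442% of all genes. They were named from the 8 wk contrast, where 14 passed as higher and 12 as lower. Smaller differences at another week can follow from that choice alone, so no growth from 6 to 8 wk is read from the values below. Myelin genes that fell at 8 wk had smaller differences here, with the myelin protein Opalin at −0.69 ± 0.37 (adjusted p = 0.303) against −1.51 at 8 wk, and Aspa, the aspartoacylase, at 0.06 against −0.65. The peptide Npy was at −0.12 against −0.63 and the neurotrophin Bdnf at −0.14 against −0.48. Serpinb1a, an inhibitor of neutrophil proteases, was at −0.60 against −1.42, and Nes, the filament of progenitors, at −0.51 against −0.90. None of these genes passed at 6 wk, and none of their changes between the weeks passed. Of 21 genes named for CAC against Con at 6 wk, 12 rose and 5 fell against NCAC, but those were chosen on the same CAC samples and are not independent evidence of their direction.

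As a set, the 207 higher genes had a median level of 31.9 TPM and the 69 lower genes 9.22, against 19.0 for all genes tested. Their median exon length was 4698 and 3387 bases, against 4275. Median GC content was 49.2% and 48.1%, against 49.7%. Among the lower genes Dok6, Lnpep, Ptar1 and Fzd3 were long and poor in GC, with exon lengths of 12804 to 14144 bases and 37.3% to 40.3% GC. Predicted or clone-named genes made up 14 of the higher and 16 of the lower genes.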

How the data were processed

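RNA was prepared with Trizol, made into libraries with the TruSeq stranded mRNA kit and sequenced on a NovaSeq instrument, per the labels' protocols. The authors deposited a table of TPM for 47643 gene symbols and 60 samples. Per the submitters' processing notes the build was mm10; aligner, counting tool and strand setting were not given in the sources used here, so antisense and overlapping genes cannot be told apart. Whole reads were recovered from the TPM steps for 100.00% of 24227 genes, within 0.02 of a read, and 61.7% of the step lengths of tested genes equalled the exon union of GENCODE M21. The recovered depth was 32388193 to 42046807 reads, and the spread between samples sets the errors. Genes with TPM of at least 1 in at least 4 samples were fitted with limma 3.58.1 (R 4.3.3) on log2(TPM + 0.5), with a variance trend and 12 group means over all 60 samples, and adjusted by Benjamini-Hochberg at 0.05. The scripts were tested on simulated data for this comparison over 15608 genes. The text names the 15 largest rises and 15 largest falls, without predicted genes or genes under 1 TPM in the higher group, up to 4 members of smallest p of each list described (32 of 50), and the 3 smallest p of each change between weeks. Shorter mentions leave some of these out, and 1 gene is not reported here. Alternatives were pseudocounts of 0.1 and 1, other filters, scaling, array weights, voom, removal of GC and length trends, a replicate block and leaving out samples. Gene lists and members were chosen with earlier results of these data known. The choroid fits and voom with median-of-ratios scaling were added after the data were seen.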

Additional observations from a re-analysis of the deposited data

Results flagged for a closer look

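Of 100 groups of samples checked for a value far from the rest (50 called genes in CAC and in NCAC), 5 held one, about the 1 in 20 that chance gives. Rbm3 was 109.9 TPM in CAC replicate 3, where the other 4 held 147.7 to 156.1, and 110.2 TPM in NCAC replicate 4, where the other 3 held 80.47 to 82.43. Kcne1l was 1.897 TPM in CAC replicate 3 against 2.976 to 3.331 in the others. Gkn3 was 2.017 TPM in CAC replicate 5 against 1.072 to 1.256. Gabrr2 was 1.127 TPM in NCAC replicate 1 against 0.9861 to 1.005. Without NCAC replicate 3 Rbm3 lost its call, and Gkn3 kept its own in all 9 fits without a sample.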

How the results depend on the processing

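The count of 276 genes was 269 and 276 with pseudocounts of 0.1 and 1, 273 with a minimum of 5 TPM, 265 with median-of-ratios scaling, 209 with voom, 253 with voom and median-of-ratios scaling, 243 with the choroid sum as a covariate and 295 with that sum less Ttr. It was 174 with no filter on low values, 96 with only the groups compared, 516 with array weights and 419 with the GC and length trend removed. Without the 4 samples of highest Ttr it was 0, with 3 CAC and 2 NCAC samples left, and without the 2 samples highest in the other choroid genes it was 22. Leaving out single samples gave 43 to 367. The cause of these shifts was not tested. The change from 6 to 8 wk had 0 calls throughout, except 1 without CAC replicate 3 (0 to 1 over these fits), and the change from 4 to 6 wk had 0 in every fit run. With the replicate number as a block 133 genes passed; samples of the same number deviated together only in part, with correlations of 0.35, 0.02, 0.08 and −0.03 for replicates 1 to 4, so the numbers were not taken as pairs. For 50 named genes that passed, 1191 alternative values were computed: 787 kept the call, 404 lost it and 0 changed direction. None of the 50 kept its call in every alternative, since the fit without the samples of highest Ttr called 0 genes. Depth limits genes such as Pbk in CAC, Scgb3a1 in NCAC and Top2a in both, whose group means are under 1 TPM.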

Other observations

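Of all genes tested 6478 of 15608 had negative differences. In lists without a call, all 15 pericyte and smooth muscle genes were negative, with a median of −0.23, as did all 8 tested genes of corticosteroid receptors and CRH signalling, with a median of −0.10. Of 22 cholesterol synthesis and uptake genes 3 were positive and 19 negative, and the median was −0.15. Genes of neural stem cells and newborn neurons summed to 469 to 501.9 TPM in CAC and 502.9 to 619 in NCAC. The groups barely parted, and no member passed. Sums also parted for the glucocorticoid, fasting, blood-brain barrier, erythroid and histone lists. The glucocorticoid and fasting lists share Pdk4, Plin4 and Angptl4, so their sums are not separate results.

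Interferon-stimulated genes summed to 364 TPM in CAC replicate 2 and to 153, 194, 166 and 224 in the other 4 CAC samples, against 181 to 233 in NCAC. Their list median was 0.00. Myelinating oligodendrocyte genes had a median of −0.04 at 6 wk and −0.45 at 8 wk, with 0 and 4 of 16 lower calls. That change was not tested for the list.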
